A study of Mus musculus with 9 samples.

Results

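Mice given KA together with NBP were compared with sham mice, to ask which differences from sham were measurable in the hippocampus at day 30 and which sizes of difference the data leave outside their error. KA is read here as kainic acid, and NBP as butylphthalide, the drug in the title of the series. Each group held 3 wild-type mice, allocated at random, with 1 library of hippocampal RNA per mouse, so the comparison uses 6 of the 9 libraries of the study. The third group, KA alone, entered the shared estimate of the spread and is shown for scale. The labels give no dose, route, strain, age or sex, and they do not say whether sham mice received a vehicle for NBP. The members are all genes of the deposited table: 18474, of which 14752 had enough counts to be tested. In every series of values below the libraries stand in the order of replicates 1, 2 and 3. Levels are CPM, the count of a gene relative to the TMM-adjusted size of its library, and describe 1 gene across libraries, not 1 gene against another.

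Kainic acid activates a class of glutamate receptors that is dense in the hippocampus, and in mice it evokes prolonged seizures, after which pyramidal neurons die, astrocytes and microglia become reactive and granule cells reorganise. Reactive astrocytes make more Gfap and Serpina3n, and reactive microglia make more complement, lysosomal and antigen-presenting proteins. Butylphthalide is a small molecule from celery seed used in ischaemic stroke. These are background facts and not results of this study.

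Among the 3 KA+NBP libraries replicate 2 stood apart from replicates 1 and 3, and this shapes each result below. A library's distance from sham was taken as its difference from the mean of 2 sham libraries, over 11737 genes with at least 5 CPM. KA+NBP replicate 1 had on average 15 genes more than 2-fold away and a median absolute log2 difference of 0.0679. KA+NBP replicate 3 had 65.3 such genes on average and a median of 0.0889. Sham libraries themselves, measured against the other 2, had 17 to 27 such genes and medians of 0.0702 to 0.0756. KA+NBP replicate 2 had 345 genes more than 2-fold away and a median of 0.183, and the KA libraries had 699 to 1030 genes and medians of 0.213 to 0.257. Replicate 1 was thus as close to sham as sham libraries were to each other, replicate 3 a little further, and replicate 2 lay between sham and KA. The biological coefficient of variation, edgeR's measure of spread between libraries beyond counting noise, was 5.54% in sham, 11.6% in KA, 23.3% in KA+NBP and 8.16% in KA+NBP without replicate 2. Library totals ran from 15699251 to 16374637 estimated counts, the lowest being that of KA+NBP replicate 2. A gene without a count in a library may still stand at up to 0.177 to 0.191 CPM there, from 3 counts, and such limits cover counting error only. Values are therefore given for all 3 KA+NBP libraries and, for the fits, also without replicate 2. The markers below also place the tissue: dentate granule cell markers summed to 1099 to 1251 CPM in sham and 1089, 1052 and 1301 in KA+NBP.

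**Figure D1:**
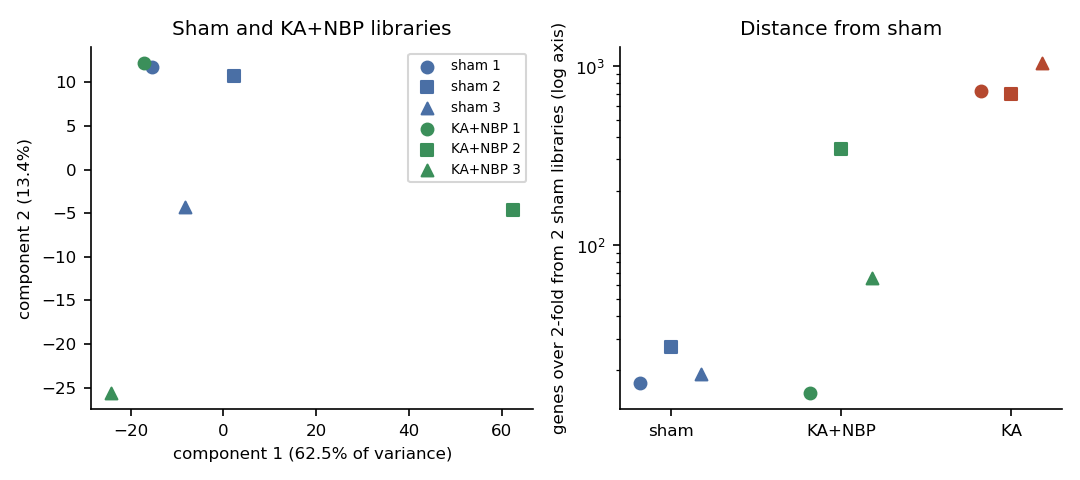
Left, the first principal components of log2 CPM over the 6 sham and KA+NBP libraries, with KA+NBP replicate 2 at 62.5 on component 1 and the other 5 between -24.2 and 2.31. Right, for all 9 libraries, the number of genes (log axis) more than 2-fold from the mean of 2 sham libraries: 15 to 65.3 for the sham libraries and KA+NBP replicates 1 and 3, 345 for KA+NBP replicate 2 and 699 to 1030 for KA; colour gives the group and marker shape the replicate.

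No gene of the 14752 tested differed between KA+NBP and sham at a Benjamini-Hochberg adjusted p under 0.05 in edgeR's quasi-likelihood test, a background of 0%. DESeq2 and limma with voom weights called 0 as well. At an unadjusted p under 0.05 edgeR gave 248 genes (1.68%), 182 higher (1.23%) and 66 lower (0.447%) in KA+NBP, and the smallest adjusted p was 0.9999. The 3 libraries of one group lay wholly above the 3 of the other for 939 genes (6.37%), 485 higher (3.29%) and 454 lower (3.08%) in KA+NBP. Without KA+NBP replicate 2 the count of called genes was again 0, with 463 genes (3.12%) at an unadjusted p under 0.05, 154 higher (1.04%) and 309 lower (2.08%). If no gene differed and the assumptions of the test held, a share near 0.05 would pass this cutoff. Both 1.68% and 3.12% lie below it. The test assumes 1 spread for all groups, while the biological coefficient of variation was 23.3% in KA+NBP and 5.54% in sham. These shares thus do not show that no difference remained. Without KA+NBP replicate 1 or 3 the number at an unadjusted p under 0.05 was 766 or 561. For scale, KA differed from sham in 4961 genes (33.6%) and KA+NBP differed from KA in 3355 (22.7%). The count for KA was 2721 without sham replicate 1 and 2762 without sham replicate 3. Leaving out KA+NBP replicate 1, 2 or 3 moved the number for KA+NBP against KA to 1295, 6355 or 1510. Leaving out a KA library moved it to 2053, 2067 or 1741 in replicate order. Because comparisons with sham share the sham libraries, their values are set side by side without a test between them.

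The genes with the smallest unadjusted p are described here although none passed the adjusted threshold. They were picked by their p, so a lack of overlap between the groups does not make any of them a called difference. The smallest p belonged to the predicted gene Gm2423 (chromosome 13, 13406078 to 13407553 on GRCm39, as are all gene positions here), which is named outside the rule for named genes because it ranks first. It stood at 59.3, 59.2 and 63.6 CPM in sham and 43.9, 37.8 and 47.6 in KA+NBP, a log2 difference of -0.49 (95% interval -0.70 to -0.29; edgeR unadjusted p = 0.000346, adjusted p = 0.9999). Each KA+NBP library lay below each sham library, and so did the KA libraries (47.4 to 52.1 CPM). The brain fatty acid binding protein gene Fabp7 (chromosome 10, 57661019 to 57664546), expressed by radial glia and astrocytes, stood at 13.9, 18.3 and 11.6 CPM in sham and 10.4, 10.6 and 7.85 in KA+NBP (log2 difference -0.60, 95% interval -1.01 to -0.19). The KA+NBP libraries lay below every sham library, whereas the KA libraries lay above them at 20.7 to 24.9 CPM, so for Fabp7 the 2 treated groups stood on opposite sides of sham. Mid1, an X-linked ubiquitin ligase gene, stood at 27.1, 25.0 and 57.8 CPM in sham and 20.1, 17.4 and 17.4 in KA+NBP (log2 difference -1.0, 95% interval -1.64 to -0.36). Its sham replicate 3 stood well above the other 2 sham libraries, and without it the log2 difference was -0.51. The splicing factor gene Cwc25 (log2 difference -0.30, 95% interval -0.49 to -0.11), the xylosyltransferase gene Xxylt1 (log2 difference -0.23, 95% interval -0.40 to -0.07), the myosin light chain gene Myl4 (log2 difference -0.79, 95% interval -1.39 to -0.19), Samd5 (log2 difference -0.55, 95% interval -0.97 to -0.13) and Leng9 (log2 difference -0.47, 95% interval -0.81 to -0.12) completed the lower named genes, all without overlap between the groups.

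Among higher genes Treml2, a receptor gene of the TREM cluster expressed by myeloid cells (chromosome 17, 48606419 to 48619562), stood at 0.187, 0.435 and 0.251 CPM in sham and 0.445, 1.47 and 1.32 in KA+NBP (log2 difference 1.86, 95% interval 0.71 to 3.02, edgeR unadjusted p = 0.00386, adjusted p = 0.9999). The lowest KA+NBP library was just above the highest sham library, and KA lay far higher at 5.55 to 6.44 CPM. Ezh2, which encodes the methyltransferase of Polycomb repressive complex 2, stood at 3.49, 3.92 and 3.64 CPM in sham and 4.64, 6.60 and 6.03 in KA+NBP (log2 difference 0.64, 95% interval 0.26 to 1.03), with KA at 4.79 to 5.19. Here KA+NBP replicates 2 and 3 lay above every KA library. The glycosyltransferase gene B3gnt5 (log2 difference 1.21, 95% interval 0.45 to 1.97), the growth factor gene Pdgfd (log2 difference 0.80, 95% interval 0.27 to 1.33), Tmem129 (log2 difference 0.26, 95% interval 0.09 to 0.42), the ATP synthase subunit gene Atp5k (log2 difference 0.31, 95% interval 0.10 to 0.52), Zbed3 (log2 difference 0.29, 95% interval 0.09 to 0.49), the scavenger receptor family gene Ssc5d (log2 difference 0.60, 95% interval 0.18 to 1.03) and the endoribonuclease gene Endou (log2 difference 1.92, 95% interval 0.50 to 3.34) were also without overlap. Endou stood at 0.437, 0.497 and 0.377 CPM in sham and 0.826, 3.36 and 0.816 in KA+NBP, and without replicate 2 its log2 difference was 0.90.

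Of 24 alternative fits, 1 brought a gene past the threshold. Phyhd1, a gene of the phytanoyl-CoA dioxygenase family, stood at 11.1, 10.3 and 9.98 CPM in sham and 9.15, 21.0 and 21.2 in KA+NBP, a log2 difference of 0.71 (95% interval 0.11 to 1.31). Replicates 2 and 3 lay above the sham range and replicate 1 below it, with KA at 27.8 to 30.0 CPM. Without KA+NBP replicate 1 the difference was 1.01 with an edgeR adjusted p of 0.0475. Phyhd1 is named for that reason and not by the rule.

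What size of difference lay outside the error was read from the 95% interval of each log2 fold change, which is per gene and not adjusted over genes. For 12600 of 14752 genes (85.4%) the whole interval lay inside 2-fold in either direction. It lay inside 1.5-fold for 10375 genes (70.3%) and inside 4-fold for 14221 (96.4%). The median half-width was a factor of 1.22. The share grew with expression level: the interval lay inside 2-fold for 9.76% of 881 genes under 1 CPM, 55.4% of 2134 genes at 1 to 5 CPM, 91.5% of 3606 at 5 to 20, 98.4% of 5607 at 20 to 100 and 99.5% of 2524 genes at 100 CPM or more. For 5 genes no interval could be computed. Without KA+NBP replicate 2 the interval lay inside 2-fold for 12921 of 14854 tested genes (87%). A 2-fold difference of group means was therefore outside the interval for most genes and for few of those under 1 CPM. These intervals assume 1 spread for all groups. The biological coefficient of variation was 14.5% over all 9 libraries, but 5.54% in sham and 23.3% in KA+NBP. The intervals may thus be too narrow, and the effect of the unequal spread on them was not tested. The interval and the F test are separate approximations and can differ at the edge, as for Gfap, whose interval narrowly missed 0 while its unadjusted p was 0.0532.

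**Figure D2:**
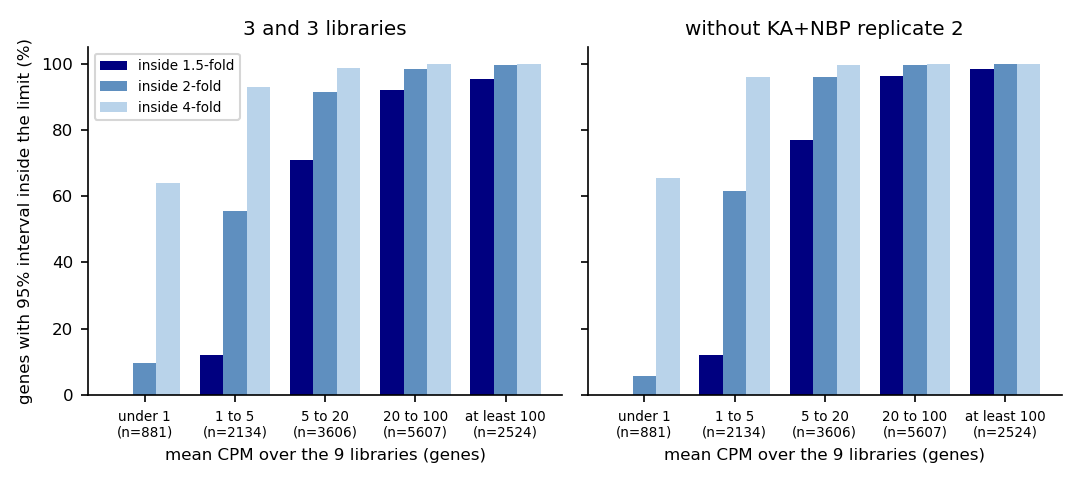
Share of genes (%) whose 95% interval of the log2 fold change, KA+NBP minus sham, lay wholly inside 1.5-, 2- or 4-fold, by mean CPM, with the number of genes in brackets. The mean CPM is over the 6 sham and KA+NBP libraries, although the axis title names 9. With 3 and 3 libraries (left) the share inside 2-fold climbs from 9.76% under 1 CPM to 99.5% at 100 CPM or more; the right panel leaves out KA+NBP replicate 2.

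Neuronal and synaptic genes differed from sham by little, and their intervals were narrow. All 30 synaptic genes, all 16 pan-neuronal markers, all 36 cytosolic ribosomal protein genes and all 26 tested nuclear respiratory chain genes had intervals inside 1.5-fold. That share was 70.3% over all genes but 91.9% at 20 to 100 CPM and 95.4% at 100 CPM or more, and these lists hold many abundant genes. All 32 voltage-gated channel genes and all 22 glutamate receptor genes had intervals inside 2-fold. Camk2a, the calcium-dependent kinase of excitatory synapses, stood at 4550, 4383 and 4875 CPM in sham and 4817, 2924 and 5085 in KA+NBP (log2 difference -0.11, 95% interval -0.51 to 0.30). Replicates 1 and 3 were within or just above the sham range and replicate 2 was below it, on the side of KA (2373 to 2605 CPM). Rbfox3, the gene of the neuronal nuclear antigen NeuN, stood at 273.8, 242 and 280.1 CPM in sham and 267, 201 and 266 in KA+NBP (log2 difference -0.12, 95% interval -0.37 to 0.13), with KA at 153 to 161. The AMPA receptor subunit gene Gria2 stood at 953, 946 and 1007 CPM in sham and 949, 797 and 976 in KA+NBP (log2 difference -0.09, 95% interval -0.29 to 0.10), and the sodium channel gene Scn1a at 175, 145 and 162 in sham and 156, 112 and 132 in KA+NBP (log2 difference -0.27, 95% interval -0.57 to 0.03). In each of these genes replicate 2 was the lowest of the 6 libraries. The NMDA receptor subunit gene Grin1 (log2 difference -0.04, 95% interval -0.30 to 0.22) had an interval inside 1.5-fold.

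That position of replicate 2 held across the lists. It was the lowest of the 6 libraries in 28 of 30 synaptic genes, 26 of 32 channel genes, 14 of 22 glutamate receptor genes and 12 of 16 pan-neuronal markers, against 34.2% of all tested genes. The median log2 deviation of synaptic genes from the sham mean was 0.07, -0.37 and 0.05 in KA+NBP, -0.05 to 0.03 in sham and -0.44 to -0.22 in KA. For CA1 pyramidal markers it was 0.08, -0.93 and -0.02 in KA+NBP, -0.11 to 0.05 in sham and -1.31 to -0.85 in KA. Replicates 1 and 3 thus stayed near the sham mean in both lists, and replicate 2 lay among the KA libraries. Fibcd1, a marker of CA1 pyramidal cells, stood at 204, 199.6 and 216 CPM in sham and 216, 62.9 and 254 in KA+NBP (log2 difference -0.22, 95% interval -1.15 to 0.71). Lefty1, a TGF-beta family gene of the same cells, stood at 8.23, 7.65 and 10.7 CPM in sham and 8.01, 2.63 and 7.85 in KA+NBP (log2 difference -0.53, 95% interval -1.35 to 0.29), and Pou3f1, a CA1 transcription factor gene, at 53.2, 48.4 and 55.9 in sham and 55.4, 26.8 and 49.8 in KA+NBP (log2 difference -0.26, 95% interval -0.76 to 0.24). Of 10 CA1 markers, 8 had intervals inside 2-fold, and without replicate 2 all 10 did. In bulk RNA fewer cells of a type and less RNA per cell cannot be told apart.

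The medians of granule, CA3 and CA2 and interneuron markers lay closer to sham than that of CA1 markers, but members went both ways. Intervals lay inside 2-fold for 11 of 16 granule, 12 of 16 CA3 and CA2 and 18 of 20 interneuron markers, against 85.4% of all genes. The median deviation of dentate granule cell markers was -0.10, -0.08 and 0.13 in KA+NBP and -0.48 to -0.31 in KA. Prox1, the granule cell transcription factor gene, stood at 133, 146 and 156 CPM in sham and 135, 175 and 158 in KA+NBP (log2 difference 0.10, 95% interval -0.16 to 0.37). Within the list Tdo2, the tryptophan dioxygenase gene, is among the 10 genes furthest below the other libraries in replicate 2. It stood at 6.42, 4.66 and 6.15 CPM in sham, 5.59, 0.795 and 6.15 in KA+NBP and 1.71, 0.245 and 0.185 in KA. For CA3 and CA2 markers the median was 0.00, -0.04 and -0.02 in KA+NBP, and replicate 2 was the lowest of the 6 libraries in 8 of the 16 and the highest in 5. Hs3st4, a heparan sulphate sulphotransferase gene, stood at 106, 96.5 and 106 CPM in sham and 107, 48.4 and 98.8 in KA+NBP, replicate 2 being inside the KA range (47.4 to 51.8). Coch, the cochlin gene, stood at 2.81, 3.23 and 4.33 CPM in sham and 3.18, 9.66 and 3.33 in KA+NBP, replicate 2 lying between sham and KA (14.3 to 32.4). Iyd, the iodotyrosine deiodinase gene, stood at 3.06, 3.85 and 4.58 CPM in sham and 2.42, 1.71 and 2.89 in KA+NBP (log2 difference -0.71, 95% interval -1.54 to 0.12), every KA+NBP library being below every sham library. Interneuron markers had a median of -0.01, -0.25 and 0.04. Erbb4, the neuregulin receptor of interneurons, stood at 79.1, 78.8 and 77.2 CPM in sham and 74.8, 55.0 and 73.5 in KA+NBP (log2 difference -0.21, 95% interval -0.55 to 0.13), without overlap, and with KA at 29.5 to 43.3.

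**Figure D3:**
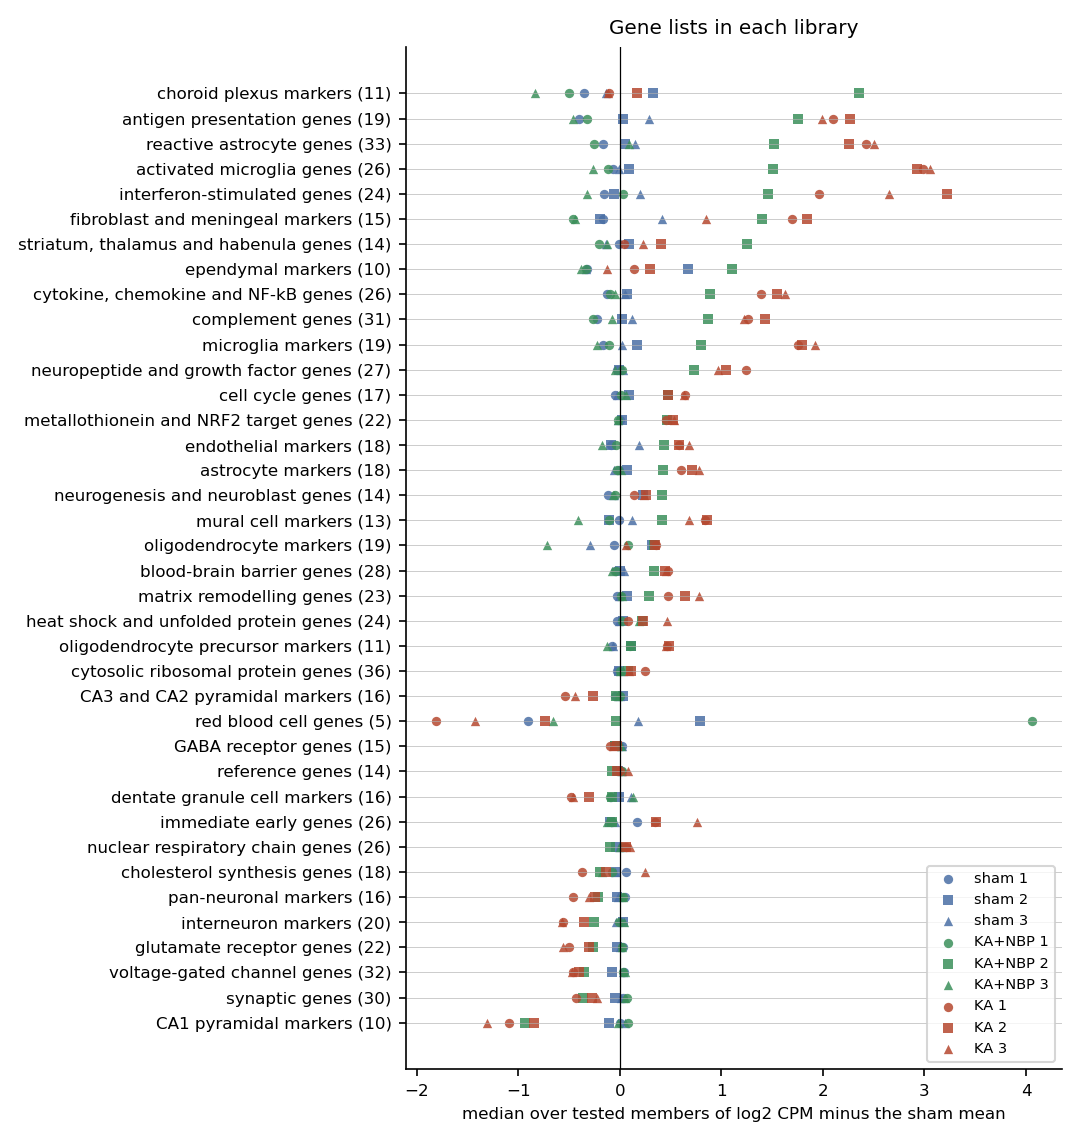
Median over the tested members of each gene list (number in brackets) of log2 CPM minus the sham mean, 1 point per library, with colour for the group and marker shape for the replicate; lists with fewer than 4 tested members are left out. KA+NBP replicates 1 and 3 sit near 0 in most lists, and replicate 2 sits towards the KA libraries in the astrocyte, microglia, immune, CA1 pyramidal and synaptic lists but near sham for dentate granule, CA3 and CA2 and oligodendrocyte precursor markers; choroid plexus markers and red blood cell genes stand apart in single KA+NBP libraries.

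Astrocyte markers had a median deviation of -0.03, 0.42 and 0.01 in KA+NBP and -0.06 to 0.07 in sham. Replicate 2 was thus high, and single genes of replicate 3 lay on either side of sham. Gfap, the intermediate filament gene of astrocytes (chromosome 11, 102778162 to 102791368), stood at 316, 391 and 329 CPM in sham and 313, 2321 and 314 in KA+NBP (log2 difference 1.51, 95% interval 0.01 to 3.01), with KA at 4379 to 5655. Replicates 1 and 3 lay just below the sham range, and replicate 2 between sham and KA. Serpina3n, a serine protease inhibitor gene of reactive astrocytes, stood at 54.0, 54.9 and 58.0 CPM in sham and 53.2, 229.8 and 78.4 in KA+NBP (log2 difference 1.12, 95% interval 0.07 to 2.16), replicate 3 also lying above the sham range. Vim, another intermediate filament gene, stood at 31.9, 42.2 and 42.7 CPM in sham and 31.0, 184 and 24.3 in KA+NBP (log2 difference 1.04, 95% interval -0.42 to 2.49), and without replicate 2 its log2 difference was -0.49 (95% interval -0.89 to -0.10). Of 33 tested reactive astrocyte genes, 0 were called, 5 had intervals inside 2-fold, and 14 had an upper bound above 4-fold. The median deviation of the list was -0.25, 1.52 and 0.09 in KA+NBP, -0.16 to 0.15 in sham and 2.26 to 2.50 in KA. Without replicate 2, 17 of the 33 had intervals inside 2-fold. The list of astrocyte markers as a whole was narrower: 16 of 18 had intervals inside 2-fold, and all 18 did without replicate 2. The glutamate transporter gene Slc1a2 stood at 3041, 3235 and 2979 CPM in sham and 2950, 4151 and 3238 in KA+NBP (log2 difference 0.16, 95% interval -0.16 to 0.48). The potassium channel gene Kcnj10 (log2 difference 0.12, 95% interval -0.50 to 0.74) and the water channel gene Aqp4 (log2 difference 0.58, 95% interval -0.45 to 1.61) had wider intervals, with replicate 2 highest in both. Replicate 3 was the lowest of the 6 libraries in both, at 125 CPM for Kcnj10 (sham 175.5 to 206.1) and 86.6 for Aqp4 (sham 123.9 to 165.9).

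Socs3, Mt1, Mt2, Cdkn1a and Hspa5 were above every sham library in replicates 2 and 3 but not in replicate 1. Socs3, a feedback inhibitor of cytokine signalling, stood at 1.50, 1.18 and 1.82 CPM in sham and 1.21, 4.28 and 4.96 in KA+NBP (log2 difference 1.21, 95% interval 0.16 to 2.27), with KA at 5.58 to 8.94. The metallothionein gene Mt1 stood at 117, 109.6 and 114 CPM in sham and 112, 204 and 200.1 in KA+NBP (log2 difference 0.60, 95% interval 0.14 to 1.06), and Mt2 at 54.8, 50.3 and 45.8 in sham and 42.1, 83.8 and 80.2 in KA+NBP (log2 difference 0.45, 95% interval -0.10 to 1.00). In these 3 genes replicate 1 was within or below the sham range, while replicates 2 and 3 lay close to each other above it. The cell cycle inhibitor gene Cdkn1a stood at 6.42, 6.90 and 5.84 CPM in sham and 6.48, 10.6 and 24.0 in KA+NBP (log2 difference 1.10, 95% interval -0.06 to 2.26), and here replicate 3 was higher than replicate 2. The astrocyte receptor gene Fgfr3 stood at 116, 113 and 109 CPM in sham and 124, 144 and 152 in KA+NBP (log2 difference 0.32, 95% interval 0.03 to 0.60), with all 3 KA+NBP libraries above every sham library. The chaperone gene Hspa5 stood at 211, 224 and 220.4 CPM in sham and 208, 338 and 292 in KA+NBP (log2 difference 0.35, 95% interval -0.15 to 0.86).

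Microglial and complement genes showed the same split by library. Of 19 microglia markers all 19 were highest of the 6 libraries in replicate 2, as were 35.2% of all tested genes. The list's median deviation was -0.11, 0.80 and -0.23 in KA+NBP, -0.16 to 0.16 in sham and 1.76 to 1.92 in KA, and 12 of 19 had intervals inside 2-fold, 17 without replicate 2. Aif1, the gene of the microglial protein Iba1, stood at 2.50, 3.98 and 2.89 CPM in sham and 2.99, 7.89 and 2.32 in KA+NBP (log2 difference 0.50, 95% interval -0.43 to 1.43). Cd68, a lysosomal protein of phagocytes, stood at 6.74, 6.78 and 6.34 CPM in sham and 6.29, 24.9 and 6.40 in KA+NBP (log2 difference 0.93, 95% interval -0.15 to 2.00), with KA at 77.8 to 81.5; replicates 1 and 3 were at the sham level and replicate 2 lay between sham and KA. Trem2, a lipid-sensing receptor gene of microglia, stood at 7.80, 9.45 and 10.2 CPM in sham and 9.85, 27.6 and 5.15 in KA+NBP (log2 difference 0.64, 95% interval -0.45 to 1.72). Fcrls, a marker of resident microglia, stood at 16.1, 17.4 and 20.5 CPM in sham and 18.4, 31.2 and 27.3 in KA+NBP (log2 difference 0.51, 95% interval 0.12 to 0.90); here replicate 3 was above the sham range as well. Among 26 activated microglia genes the median deviation was -0.12, 1.50 and -0.27 in KA+NBP and 2.92 to 3.05 in KA, and 7 of 26 had intervals inside 2-fold. Cst7, a cystatin gene of activated microglia, stood at 0.0624, 0.186 and 0.251 CPM in sham, 0, 8.01 and 0.188 in KA+NBP and 66.3, 68.2 and 78.5 in KA. Replicate 1 had no count for Cst7, replicate 3 was within the sham range and replicate 2 was far above it, so the interval of its log2 difference of 3.99 (95% interval -1.25 to 9.23) left almost any difference possible. Clec7a, a pattern recognition receptor gene, stood at 0.561, 0.808 and 0.251 CPM in sham and 0.127, 9.97 and 0 in KA+NBP, replicate 3 being without a count. Lysozyme 2, Lyz2, stood at 6.11, 9.01 and 10.2 CPM in sham, 3.43, 70.4 and 3.39 in KA+NBP and 183, 133 and 124 in KA; with replicate 2 the log2 difference from sham was 1.61 and without it -1.30.

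The complement genes, which the series title names, were bounded unevenly. C1qa, which encodes part of the recognition molecule of the classical pathway, stood at 31.7, 47.1 and 42.0 CPM in sham and 33.4, 121 and 45.2 in KA+NBP (log2 difference 0.73, 95% interval -0.18 to 1.63), with KA at 334 to 344. Without replicate 2 its log2 difference was -0.03 (95% interval -0.39 to 0.32), inside 1.5-fold. C1qb stood at 33.3, 42.3 and 45.2 CPM in sham and 32.2, 112 and 53.4 in KA+NBP (log2 difference 0.71, 95% interval -0.11 to 1.52). For C1qa replicates 1 and 3 were inside the sham range, and for C1qb replicate 1 was just below it and replicate 3 above it. C4b, complement component 4, stood at 70.3, 74.8 and 62.4 CPM in sham and 49.6, 394 and 67.9 in KA+NBP (log2 difference 1.301, 95% interval -0.14 to 2.74), and C3, the component on which all complement pathways converge, at 2.06, 8.27 and 2.20 in sham and 2.42, 60.3 and 0.753 in KA+NBP (log2 difference 2.34, 95% interval -0.50 to 5.19). For C3 the sham libraries themselves spread widely, replicate 2 being the highest, and KA stood at 98.5 to 164 CPM. Itgax, a subunit of a complement receptor, stood at 0.0624, 0.684 and 0.439 CPM in sham and 0.381, 6.11 and 0.126 in KA+NBP (log2 difference 2.47, 95% interval -0.58 to 5.52). Of 31 tested complement genes 0 were called, 13 had intervals inside 2-fold and 7 had an upper bound above 4-fold; without replicate 2, 21 had intervals inside 2-fold. The list's median deviation was -0.26, 0.87 and -0.07 in KA+NBP, -0.22 to 0.12 in sham and 1.23 to 1.43 in KA. Microglia markers summed to 802 to 904 CPM in sham, 784, 1588 and 808 in KA+NBP and 3136 to 3293 in KA, and their part in the complement values was not tested.

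**Figure D4:**
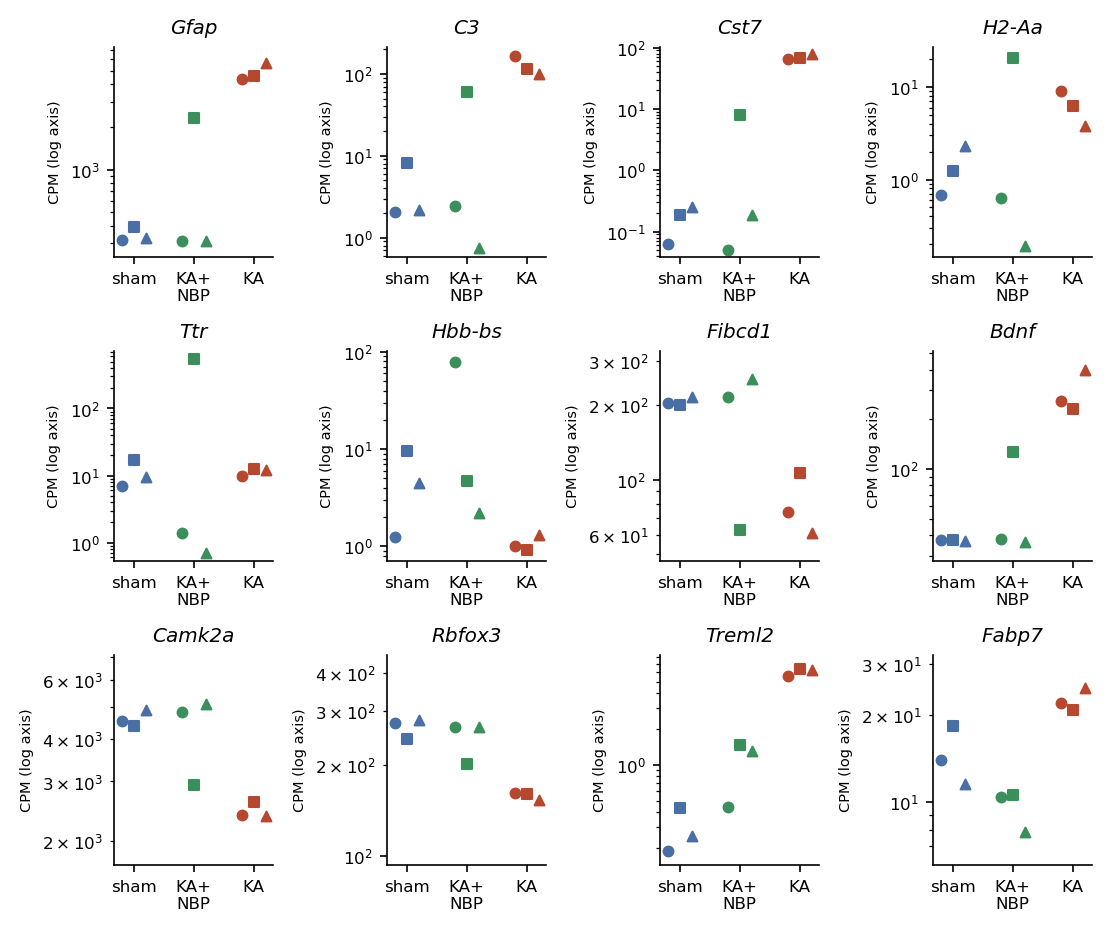
CPM (log axis, a separate scale for each gene) of 12 genes in each library, by group, with marker shape for the replicate; a library without a count is drawn at 0.05. For Gfap, C3, Cst7 and Bdnf KA+NBP replicate 2 lies between sham and KA, for H2-Aa and Ttr it lies above all other libraries, and Hbb-bs is highest in KA+NBP replicate 1.

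Interferon-stimulated genes and antigen presentation genes were also high in replicate 2. All 24 interferon-stimulated genes were highest of the 6 libraries there, with a median deviation of 0.03, 1.46 and -0.33 in KA+NBP and 1.97 to 3.22 in KA. Irf7, the transcription factor gene that amplifies the interferon response, stood at 0.998, 1.68 and 1.70 CPM in sham and 2.23, 5.38 and 1.19 in KA+NBP (log2 difference 1.01, 95% interval -0.28 to 2.29), and Bst2, a membrane protein that tethers viruses, at 2.00, 2.11 and 2.01 in sham and 2.23, 7.15 and 1.88 in KA+NBP (log2 difference 0.88, 95% interval -0.22 to 1.99). Of 19 antigen presentation genes 18 were highest in replicate 2, with a median of -0.32, 1.76 and -0.47 in KA+NBP and 1.99 to 2.27 in KA. MHC class II is the complex that presents peptides to helper T cells, and in the genes of its chains replicate 2 exceeded even the KA libraries. H2-Aa, an alpha chain gene, stood at 0.686, 1.24 and 2.32 CPM in sham, 0.636, 20.9 and 0.188 in KA+NBP and 8.97, 6.26 and 3.82 in KA. H2-Ab1, its beta chain partner, stood at 0.624, 1.37 and 2.26 CPM in sham, 0.636, 15.96 and 0.126 in KA+NBP and 7.08, 5.64 and 4.69 in KA. Cd74, the invariant chain that escorts class II molecules, stood at 1.37, 2.55 and 5.02 CPM in sham, 1.65, 44.0 and 0.377 in KA+NBP and 22.02, 16.3 and 14.1 in KA. In these 3 genes KA+NBP replicate 3 was below every sham library, so that the KA+NBP group held both the highest and the lowest of the 6 libraries, and without replicate 2 the log2 differences were -1.77 (95% interval -3.53 to 0.00) for H2-Aa, -1.88 (95% interval -3.51 to -0.25) for H2-Ab1 and -1.55 (95% interval -3.04 to -0.06) for Cd74. H2-Eb1, another beta chain gene, stood at 0.624, 1.37 and 2.01 CPM in sham and 0.445, 12.7 and 0.314 in KA+NBP. H2-DMb1, which helps load peptides, stood at 0.686, 1.06 and 1.51 CPM in sham and 0.826, 3.36 and 0.942 in KA+NBP, with replicate 2 here below the KA libraries (4.62 to 6.02). Nlrc5, a regulator of MHC class I genes, stood at 1.93, 1.55 and 1.82 CPM in sham and 1.14, 13.2 and 0.879 in KA+NBP (log2 difference 1.52, 95% interval -0.46 to 3.50). Some class II genes have closely related copies, and how the authors' counting divided reads between such copies is not given in the sources used here. Lymphocyte genes were rare: of 14 infiltrating leukocyte markers 3 were tested, and Cd8a, a T cell coreceptor gene, stood at 0.0624, 0.249 and 0 CPM in sham, 0.127, 4.83 and 0 in KA+NBP and 2.30, 1.53 and 1.05 in KA. Jchain, the joining chain of secreted antibodies, stood at 0.312, 1.06 and 0.439 CPM in sham, 0.699, 18.9 and 0.251 in KA+NBP and 2.83, 1.59 and 0.432 in KA. The part of such cells in the class II values was not tested.

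Class II genes carry a Y box in their promoters, a short element with the core ATTGG, which reads on the opposite strand as CCAAT. Promoter sequences are shown for the 3 of 5 class II genes looked up that had an entry (H2-Aa, H2-Eb1 and H2-DMb1), because these genes stood high together in replicate 2; H2-Ab1 and Cd74 are named only. They are RefSeq sequences on GRCm38.p6, from 250 bases before to 50 after the gene start, written 5′ to 3′ along the gene, with each such match in capitals.
H2-Aa (chr17:34287774-34288073, minus strand): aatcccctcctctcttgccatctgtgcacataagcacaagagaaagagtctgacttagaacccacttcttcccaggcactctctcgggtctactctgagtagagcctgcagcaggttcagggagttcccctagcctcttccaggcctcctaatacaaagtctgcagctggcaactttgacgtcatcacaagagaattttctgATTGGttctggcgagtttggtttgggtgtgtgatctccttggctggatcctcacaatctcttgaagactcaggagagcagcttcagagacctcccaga
H2-Eb1 (chr17:34305617-34305916, plus strand): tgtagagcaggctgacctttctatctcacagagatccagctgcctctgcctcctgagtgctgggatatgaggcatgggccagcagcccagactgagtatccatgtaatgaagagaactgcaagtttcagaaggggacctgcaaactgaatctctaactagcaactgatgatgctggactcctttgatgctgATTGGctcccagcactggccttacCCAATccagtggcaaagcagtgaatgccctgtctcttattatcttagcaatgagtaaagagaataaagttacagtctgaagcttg
H2-DMb1 (chr17:34152941-34153240, plus strand): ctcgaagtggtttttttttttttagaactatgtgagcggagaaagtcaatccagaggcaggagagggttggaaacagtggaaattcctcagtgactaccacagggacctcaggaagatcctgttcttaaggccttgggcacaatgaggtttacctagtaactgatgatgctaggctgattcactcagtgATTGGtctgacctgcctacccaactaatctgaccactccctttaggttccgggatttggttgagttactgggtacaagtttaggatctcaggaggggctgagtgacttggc
The first match begins 48 bases before the start in H2-Aa, 59 in H2-Eb1 and 61 in H2-DMb1. The 5 letters occur on either strand in 12289 of 32851 promoters of this length (37.4%), so a match is a description only.

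Genes of the choroid plexus set replicate 2 apart from KA as well as from sham, and genes of other neighbouring tissue were also high there. Ttr, the transthyretin gene made by choroid plexus epithelium (chromosome 18, 20797266 to 20807383), stood at 7.05, 17.2 and 9.54 CPM in sham, 1.398, 554 and 0.691 in KA+NBP and 9.74, 12.6 and 11.9 in KA. Replicates 1 and 3 lay below every sham library and replicate 2 far above all, so the log2 difference from sham was 4.04 (95% interval 0.35 to 7.73) with replicate 2 and -3.42 (95% interval -4.57 to -2.28) without it (edgeR adjusted p = 0.371). All 11 tested choroid plexus markers were highest of the 6 libraries in replicate 2. The list's median deviation was -0.50, 2.35 and -0.84 in KA+NBP, -0.35 to 0.33 in sham and -0.12 to 0.17 in KA, and its summed level was 191, 1238 and 125 CPM in KA+NBP against 178 to 249 in sham. Clic6, a chloride channel gene, stood at 0.374, 3.23 and 1.25 CPM in sham and 0.191, 17 and 0.314 in KA+NBP, and Kcnj13, a potassium channel gene, at 0.437, 0.622 and 0.753 in sham and 0.381, 8.07 and 0.126 in KA+NBP. The coagulation factor gene F5 followed the same order at 1.12, 1.93 and 2.13 CPM in sham and 0.508, 13.7 and 0.439 in KA+NBP. All 10 ependymal markers were highest in replicate 2, Foxj1, the master regulator of motile cilia, standing at 6.30, 12.6 and 6.15 CPM in sham and 8.01, 21.2 and 6.21 in KA+NBP. Of 14 tested genes of striatum, thalamus and habenula, 12 were highest in replicate 2. Among them the dopamine receptor gene Drd1 stood at 4.87, 4.54 and 3.45 CPM in sham and 4.32, 24.1 and 3.26 in KA+NBP, with KA at 12.1 to 23.3. Penk, the enkephalin gene, stood at 18.8, 18.8 and 19.96 CPM in sham and 22.2, 162 and 19.0 in KA+NBP, with KA at 114 to 376. For Penk replicate 2 was thus inside the KA range, and for Drd1 just above it. The summed level of the striatum, thalamus and habenula list was 188, 578 and 197 CPM in KA+NBP, 198 to 280.0 in sham and 305 to 596 in KA, so that replicate 2 lay inside the KA range. The part of neighbouring tissue in the other values of replicate 2 was not tested.

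Vascular and barrier genes were bounded more tightly than immune genes. Of 28 tested blood-brain barrier genes 0 were called, 18 had intervals inside 1.5-fold and 26 inside 2-fold, against 70.3% and 85.4% of all tested genes. These shares grew with expression level, and the lists were not matched for level. The median deviation was -0.04, 0.33 and -0.08 in KA+NBP, -0.05 to 0.04 in sham and 0.45 to 0.47 in KA. Cldn5, the main claudin of brain endothelium, stood at 16.9, 23.6 and 24.1 CPM in sham and 22.5, 33.1 and 20.6 in KA+NBP (log2 difference 0.24, 95% interval -0.19 to 0.67), with only replicate 2 above the sham range. Ocln, the occludin gene, stood at 14.2, 15.2 and 15.9 CPM in sham and 16.5, 17.1 and 14.6 in KA+NBP (log2 difference 0.09, 95% interval -0.12 to 0.30), and Tjp1, the zonula occludens scaffold gene, at 136, 150.4 and 143 in sham and 132, 181 and 133 in KA+NBP (log2 difference 0.06, 95% interval -0.21 to 0.33). Slc2a1, the glucose transporter gene of the barrier, stood at 88.4, 82.6 and 103 CPM in sham and 83.3, 106 and 121 in KA+NBP (log2 difference 0.18, 95% interval -0.14 to 0.50), replicates 2 and 3 being above the sham range. Mfsd2a, a lipid transporter gene of brain endothelium, stood at 17.8, 18.4 and 21.0 CPM in sham and 18.2, 18.7 and 37.4 in KA+NBP (log2 difference 0.38, 95% interval -0.32 to 1.08); replicates 1 and 2 were at the sham level and replicate 3 at the level of KA (33.6 to 61.9 CPM). Endothelial markers had intervals inside 2-fold in 17 of 18 cases and mural cell markers in 11 of 13, again against 85.4% of all tested genes. Fibroblast and meningeal markers were wide, with 2 of 15 inside 2-fold; Col1a1, a collagen chain gene, stood at 6.80, 5.72 and 9.35 CPM in sham and 4.77, 31.1 and 5.59 in KA+NBP.

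Activity-linked genes followed no single pattern. Bdnf, a neurotrophin gene induced by activity, stood at 37.3, 37.4 and 36.7 CPM in sham and 37.6, 127 and 36.2 in KA+NBP (log2 difference 0.85, 95% interval -0.16 to 1.86), with KA at 230.4 to 398. Replicates 1 and 3 were within 1 CPM of the sham range. Npy, a neuropeptide gene that granule cells express after seizures, stood at 23.01, 24.4 and 24.0 CPM in sham and 26.2, 80.9 and 25.2 in KA+NBP (log2 difference 0.89, 95% interval -0.10 to 1.88), and Pdyn, the dynorphin precursor gene, at 13.2, 12.1 and 12.1 in sham and 11.8, 38.8 and 16.1 in KA+NBP (log2 difference 0.84, 95% interval 0.02 to 1.66). Trh, the thyrotropin-releasing hormone gene, stood at 0.499, 0.746 and 0.439 CPM in sham, 0.254, 6.17 and 0.188 in KA+NBP and 38.0, 40.7 and 84.7 in KA. In each of these 4 genes replicate 2 stood far above the other 5 libraries. Immediate early genes did not share this: their median deviation was -0.08, -0.08 and -0.12 in KA+NBP, -0.10 to 0.16 in sham and 0.35 to 0.76 in KA. Fos stood at 18.7, 9.57 and 9.73 CPM in sham and 9.66, 15.7 and 8.79 in KA+NBP (log2 difference -0.15, 95% interval -0.99 to 0.68), where sham replicate 1 was the highest of the 6, and Arc at 132, 112 and 101 in sham and 112, 99.2 and 121 in KA+NBP (log2 difference -0.06, 95% interval -0.48 to 0.37). Nr4a3, a nuclear receptor gene, stood at 111, 104.8 and 104 CPM in sham and 102, 74.3 and 94.3 in KA+NBP (log2 difference -0.24, 95% interval -0.55 to 0.08), every KA+NBP library below every sham library.

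**Figure D5:**
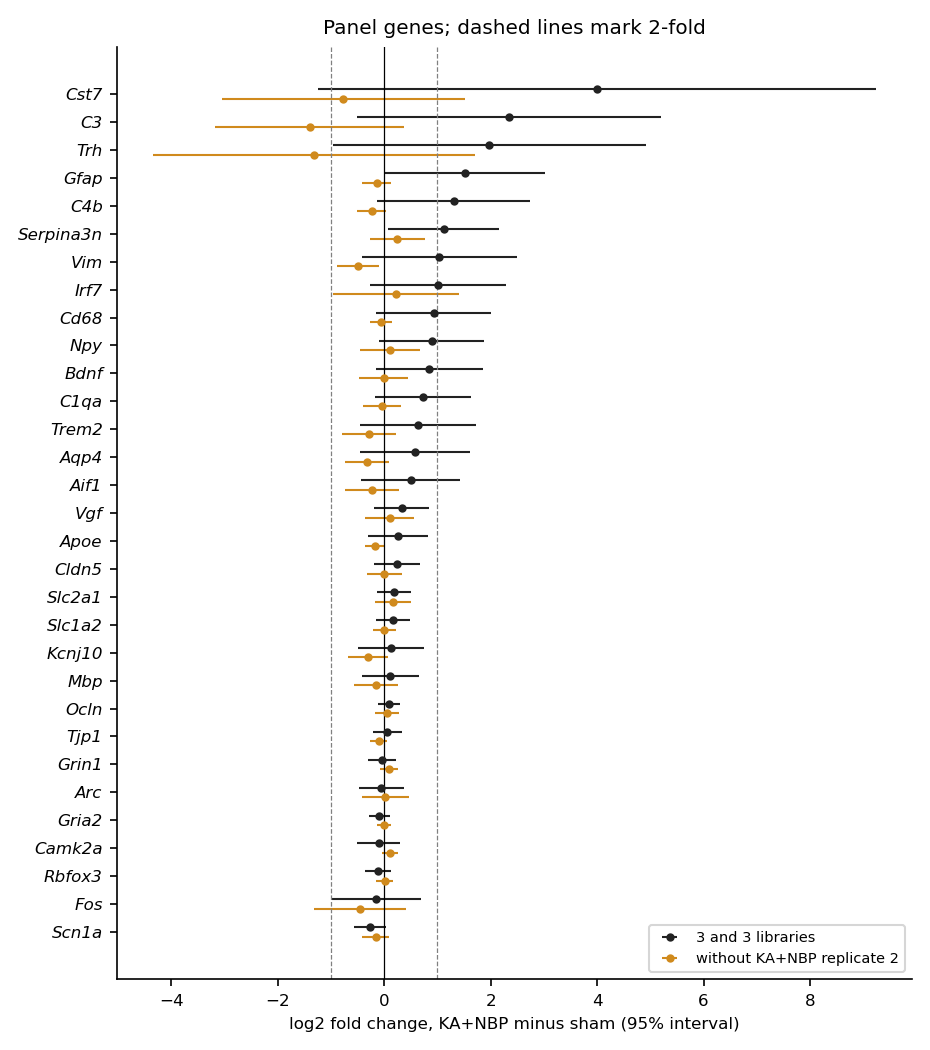
Log2 fold change, KA+NBP minus sham, with its 95% interval for 31 of the 32 panel genes, from the fit with 3 and 3 libraries (black) and without KA+NBP replicate 2 (orange); dashed lines mark 2-fold. With all libraries 16 of the intervals drawn lie inside 2-fold, and without replicate 2 the number is 26.

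Cholesterol synthesis genes were slightly below sham in the KA+NBP libraries. The median deviation of the 18 genes was -0.08, -0.20 and -0.18 in KA+NBP, -0.05 to 0.06 in sham and -0.38 to 0.25 in KA. The groups did not overlap in 6 of the 18, against 6.37% of all tested genes, but none was called and all 18 intervals lay inside 2-fold. Dhcr7, a reductase late in the pathway, stood at 41.4, 37.9 and 39.6 CPM in sham and 36.8, 31.98 and 33.8 in KA+NBP (log2 difference -0.21, 95% interval -0.50 to 0.07), and Insig1, the sterol-dependent regulator, at 63.3, 56.9 and 57.1 in sham and 52.3, 54.9 and 47.1 in KA+NBP (log2 difference -0.20, 95% interval -0.48 to 0.08). Fdps, which makes farnesyl diphosphate, stood at 41.7, 39.0 and 39.9 CPM in sham and 39.0, 30.0 and 34.5 in KA+NBP (log2 difference -0.22, 95% interval -0.52 to 0.08). In these 3 genes each KA+NBP library lay below each sham library, by little.

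Replicates 1 and 3 had departures of their own. Haemoglobin genes were high in replicate 1 alone: Hbb-bs, an adult beta globin gene, stood at 1.25, 9.64 and 4.52 CPM in sham and 78.4, 4.71 and 2.20 in KA+NBP, Hba-a1 at 1.56, 6.78 and 2.57 in sham and 53.1, 2.94 and 0.753 in KA+NBP, and Hbb-bt at 0.499, 1.06 and 0.942 in sham and 15.2, 0.917 and 0.565 in KA+NBP. The KA libraries stood at 0.92 to 1.29 CPM for Hbb-bs. These near-identical copies share reads, so their split between genes is uncertain. Oligodendrocyte markers were low in replicate 3, with a median deviation of 0.08, 0.34 and -0.72 in KA+NBP and -0.29 to 0.31 in sham. Mbp, the myelin basic protein gene, stood at 2488, 3125 and 2208 CPM in sham and 2807, 3780 and 1865 in KA+NBP (log2 difference 0.11, 95% interval -0.42 to 0.64), and Fa2h, which makes myelin lipids, at 37.2, 49.3 and 31.9 in sham and 35.7, 39.5 and 21.9 in KA+NBP (log2 difference -0.29, 95% interval -0.79 to 0.22). Replicate 3 was the lowest of the 6 for both. Plin4, a lipid droplet coat gene, stood at 6.05, 3.36 and 4.96 CPM in sham and 4.83, 6.73 and 55.7 in KA+NBP (log2 difference 2.22, 95% interval 0.29 to 4.16), with KA at 11.3 to 30.3. Replicate 3 was far above the sham range for Plin4 and highest of all 9 libraries, while replicates 1 and 2 were near sham.

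Without replicate 2, the genes with the smallest unadjusted p and lower in KA+NBP included myeloid genes besides Ttr, Lyz2 and F5 given above, and none was called. Myo1f, a leukocyte myosin gene, stood at 4.12, 4.91 and 4.64 CPM in sham and 2.42, 10.3 and 1.76 in KA+NBP; its log2 difference was 0.08 (95% interval -1.13 to 1.29) with replicate 2 and -1.13 (95% interval -1.53 to -0.72) without it. Ctsh, a lysosomal cathepsin gene, stood at 9.42, 10.9 and 11.6 CPM in sham and 7.63, 25.9 and 6.65 in KA+NBP (log2 difference -0.57, 95% interval -0.84 to -0.31 without replicate 2). Slc7a7, an amino acid transporter gene of macrophages, stood at 2.12, 2.30 and 2.13 CPM in sham and 1.08, 2.75 and 0.942 in KA+NBP (log2 difference -1.11, 95% interval -1.64 to -0.58 without it), and Angptl2, a secreted angiopoietin-like protein gene, at 3.62, 2.42 and 3.08 in sham and 1.02, 4.65 and 1.19 in KA+NBP (log2 difference -1.45, 95% interval -2.05 to -0.85). In each, replicates 1 and 3 lay below every sham library and replicate 2 above. The higher genes were of small size, among them Uxs1 (0.23), Lman2l (0.24), Exoc6b (0.24) and Zbed3 (0.32), apart from Plin4 (2.66), Hbb-bt (3.23) and Kirrel2 (1.06). With replicates 1 and 2 in place of 1 and 3 the log2 difference was 0.27 for Plin4, and with replicates 2 and 3 it was -0.17 for Hbb-bt. Kirrel2, an immunoglobulin superfamily gene, stood at 8.92, 5.47 and 10.5 CPM in sham and 11.6, 5.75 and 22.9 in KA+NBP, replicates 1 and 3 being above every sham library and replicate 2 inside the sham range.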

How the data were processed

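RNA of 6 libraries (3 sham, 3 KA+NBP) was compared, and 3 KA libraries shared the estimate of the spread. For each gene and library the deposited table holds 3 units: the estimated count, FPKM and TPM. The submitters' processing notes name Bowtie2, RSEM 1.3.1, DESeq2 1.4.5 and GRCm39, with roles not stated. Between 5.65 and 6.61% of the estimated counts as the authors deposited them carried a fraction, and they were rounded here. FPKM as deposited by the authors entered an alternative fit only, on log2(FPKM + 1) and log2(FPKM + 0.1). No result rests on the deposited TPM.

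In R 4.3.3 with edgeR 4.0.16, filterByExpr kept 14752 genes (79.9%), TMM scaled the libraries, and 1 model with a mean per group was fitted to all 9 libraries. KA+NBP minus sham was tested with the quasi-likelihood F statistic, p-values were adjusted after Benjamini and Hochberg, and the threshold was 0.05. The 95% interval is the estimate plus or minus the t quantile times the standard error from the fitted weights and dispersion (median 9.23 degrees of freedom). Deviations from sham use log2 CPM with a prior count of 2. DESeq2 1.42.0 and limma 3.58.1 gave alternative fits. Counting limits cover counting error only, since reads copied by PCR are not independent.

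Groups follow the labels. Replicate numbers have no stated meaning across groups, but the deviations of same-numbered sham and KA+NBP libraries from their group means correlated at 0.301, 0.332 and 0.126. All are over 0.1, but sham 1 and KA+NBP 3, whose numbers differ, stood at 0.192, above the third of these. Any pairing of these groups is thus read from the values, not from the labels, and the replicate block was tried as an alternative. Named genes are the 10 with the smallest unadjusted p in each direction (higher group mean at least 1 CPM), with all libraries and without KA+NBP replicate 2, the 10 furthest above and below in that library (at least 5 CPM), a panel of 32, and up to 4 members of each list by p. Predicted genes were passed over but counted. Some genes that these rules name are not reported here. Members, panel and the 40 lists (766 genes, 722 tested) were chosen with earlier results of these data known, and no list test was made. Alternatives covered the tool, scaling, filter, rounding, unit, libraries and block.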

Additional observations from a re-analysis of the deposited data

How the results depend on the processing

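The count of 0 genes past the threshold held in 23 of 24 alternative fits and was 1 (Phyhd1) without KA+NBP replicate 1, so that it ran from 0 to 1 when 1 library was left out. With the replicate number as a block, in all 9 libraries or in the 6 of the comparison, it was again 0, and the block changed no call. Genes with an interval inside 2-fold numbered 11554 with a 99% interval and 14342 on log2(FPKM + 1), and 11987 to 12921 with 1 library left out. Genes at an unadjusted p under 0.05 ranged from 102 to 766. A fit of 5 libraries, without KA+NBP replicate 2 and KA, was chosen after seeing the data and gave 0 called genes and 693 at an unadjusted p under 0.05. KA against sham ran from 2721 to 6700 and KA+NBP against KA from 1295 to 6355 with 1 library left out, and the latter was 6307 with voom and sample quality weights.

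Of 1095 log2 differences of named genes under alternatives, 25 were scored as a change of sign. Panel genes are among the 1095 but were not scored for sign, so 25 is a lower limit. Without KA+NBP replicate 2, Gfap went from 1.51 to -0.14 and C3 from 2.34 to -1.40, while Serpina3n kept its sign (1.12 and 0.24). The cause was not tested beyond the library left out. With 1 library left out Ttr ranged from -3.42 to 4.62, Myo1f from -1.13 to 0.48, F5 from -1.85 to 2.04, Ctsh from -0.57 to 0.66 and Lyz2 from -1.30 to 2.13. Ttr was -0.28 with voom weights, -2.73 with quality weights, -3.42 without KA+NBP replicate 2 and -3.43 in the 5 libraries. Myo1f was -0.35, -0.95, -1.13 and -1.13 in the same order, -0.13 with the replicate block and -0.28 with it in the 6 libraries. F5 was -0.13, -1.45, -1.85 and -1.85. Without a reversal under voom, Ctsh was -0.45 with quality weights, -0.57 without replicate 2 and -0.58 in the 5 libraries, and Lyz2 -1.01, -1.30 and -1.31. In the same way Lman2l ranged from -0.12 to 0.24, Exoc6b from -0.08 to 0.24 and Hbb-bt from -0.17 to 3.27. For most genes under 1 CPM the interval reached past 2-fold, so that a 2-fold difference was not outside it at this depth and number of libraries. The interval is no measure of what would be called at any level: Gfap, at a log2 difference of 1.51 with all libraries, was not called.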
